A study of Mus musculus with 20 samples.

Results

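The comparison set 5 wild-type livers of mice fed CDA-HFD against 5 wild-type livers of mice fed Western diet (WD). These were all livers of the series whose mice had received AAV-TBG-GFP, 10 of 20 libraries, chosen by their genotype and diet labels and by no measured value. The mice carried Cideb fl/fl alleles, and the virus expressed green fluorescent protein from the hepatocyte promoter TBG, so Cideb was intact and "wild-type" (WT) here means floxed but not recombined. WD is a diet rich in sugar, fat and cholesterol, given by the study with fructose and glucose in the drinking water. CDA-HFD is a high-fat diet without choline, in which L-amino acids take the place of protein, and the study's methods describe it as deficient in methionine as well. The labels give 3 months of feeding for both diets, whereas the study's methods give 24 weeks for WD and 12 weeks for CDA-HFD, with virus injected at 6 weeks of age. Sugar, cholesterol, choline, methionine and fat source differed together with the diet. By the study's methods, though not by the labels, feeding time and with it age differed as well. The parts of all these cannot be told apart. The other 10 livers came from Cideb fl/fl mice that received AAV-TBG-Cre (KO) on the same diets and were used only where named below. No liver of the series came from a chow-fed mouse. A rise or fall on CDA-HFD therefore cannot be told from the opposite change on WD. The labels do not give the sex of the mice. All 10 WT libraries held 1013 to 1571 reads of the Y-linked gene Ddx3y and 3 to 27 reads of Xist.

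Both diets are used to produce steatotic liver disease in mice, by different routes. Dietary cholesterol enters hepatocytes, holds back the SREBP2 program of sterol synthesis and, through its oxysterols, switches on the LXR receptors, while sugar drives the ChREBP and SREBP1c programs of fatty acid synthesis. Choline is needed to make phosphatidylcholine, the surface lipid of very low density lipoprotein (VLDL), and without it triglyceride stays in the hepatocyte. Injury of this kind brings macrophages to the liver, activates stellate cells to lay down collagen, and expands bile duct-like cells.

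The tables hold RNA-seq read counts per gene, 11697049 to 16827147 reads on genes per WT library, with no detectable difference in depth between the diets (p = 0.802 by a two-sided exact permutation test, which cannot go below 0.00794 with 5 against 5). Counts were scaled by TMM and are given below as CPM, the reads of a gene per 1e6 reads of the normalised library. The scaling factors did not overlap between the diets, at 0.789 to 0.95 for WD and 1.06 to 1.27 for CDA-HFD (exact permutation p = 0.00794), and the 10 most abundant genes took 17.6% to 20.9% of the reads on WD and 11.9% to 16.3% on CDA-HFD. Scaling by library size alone shifted the median log2 fold change of all genes from -0.0032 to 0.42. A difference below is therefore a difference relative to the bulk of genes, and a fall smaller than about 0.42 on the log2 scale is not a fall under library-size scaling. Livers were the replicates, and the p-value of a gene weighs the difference between the diets against the spread between livers of one diet.

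The diets separated the livers along principal component 1 (72.7% of the variance), with WD livers at -81.4 to -31.2 and CDA-HFD livers at 34.8 to 81.2. Of 16726 genes tested with edgeR, 4335 (25.9%) were higher on CDA-HFD and 4207 (25.2%) were lower at an adjusted p under 0.05. A 2-fold size was reached by 2154 of the higher genes (12.9% of those tested) and by 1020 of the lower genes (6.1%). All 5 CDA-HFD livers lay above all 5 WD livers for 3196 genes (19.1%) and below them for 3025 (18.1%). With library-size scaling the split was 9120 higher and 1570 lower, so 85.3% of calls were rises instead of 50.7%. WD livers 1 and 2 lay apart from WD livers 3 to 5 on the second component (7.63% of the variance), at 37.9 and 29.6 against -28.8 to 0.455, and without them 4609 genes were higher and 4207 lower.

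**Figure D1:**
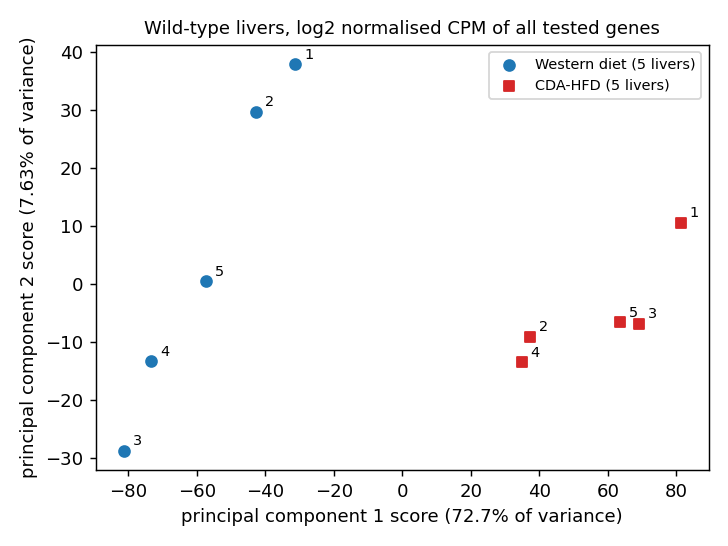
Scores of the 10 wild-type livers on the first 2 principal components of log2 normalised CPM, each point a liver with its number (circles, Western diet; squares, CDA-HFD). The horizontal axis separates the diets, and WD livers 1 and 2 sit above WD livers 3 to 5 on the vertical axis.

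Where the mean over the 10 livers was 2 or more on the log2 CPM scale and the diets did not overlap, the largest falls were led by Scd1 (stearoyl-CoA desaturase, which makes monounsaturated fatty acids; chr19:44394455-44407879, minus strand, GRCm38) and the largest rises by Meg3, an imprinted non-coding RNA, and by macrophage genes. Scd1 stood at 42647, 54337, 62788, 69140 and 58420 CPM in WD livers 1 to 5 and at 56.1, 248, 74.2, 154 and 555 CPM in CDA-HFD livers 1 to 5. The diets did not overlap, and the spread among CDA-HFD livers was itself wide. The log2 fold change was -8.05 ± 0.73 (standard error, SE; adjusted p = 1.54e-05). Scd1 alone took 4.04% to 5.72% of all reads on genes in the WD libraries and 0.00711% to 0.0668% in the CDA-HFD libraries.

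Meg3 (chr12:109541001-109571726, plus strand) stood at 0.57, 0.723, 0.862, 1.24 and 0.842 CPM on WD and at 47.5, 49.5, 44.8, 29.1 and 32.4 CPM on CDA-HFD, a log2 fold change of 5.59 ± 0.23 (adjusted p = 1.53e-07). It was near the limit of detection in every WD liver, with as few as 7 reads, and its 416 or more reads in every CDA-HFD liver lay far above. Gpnmb, a glycoprotein of lipid-loaded macrophages (chr6:49036546-49070929, plus strand), stood at 47.2, 26.7, 1.8, 4.65 and 12.9 CPM on WD and at 1390, 482, 914, 503 and 663 CPM on CDA-HFD (5.40 ± 0.75, adjusted p = 0.000151). WD livers 1 and 2 were the highest of their group for Gpnmb, and still lay below every CDA-HFD liver. Other rises among the 12 largest were Mmp12 (macrophage elastase, 4.92), Ltbp2 (an extracellular matrix protein, 4.89), Asns (asparagine synthetase, 4.56), Adam8 (a leukocyte metalloprotease, 4.24), Trem2 (a lipid receptor of macrophages, 4.19), Lum (the matrix proteoglycan lumican, 4.03), Scara3 (a scavenger receptor-like protein, 4.01), Il7r (the interleukin-7 receptor, 4.01) and Atp6v0d2 (a proton pump subunit of macrophages and osteoclasts, 3.97). The other falls were Mup17 (-5.04), Mup14 (-3.82) and Mup11 (-3.78), which encode major urinary proteins, Cyp2c29 (-4.77), the pseudogene Serpina4-ps1 (-4.58), C4a (complement, -4.50), Thrsp (a lipogenic protein known as Spot 14, -4.35), Elovl3 (-3.90), Hamp2 (a hepcidin copy, -3.82), Hcn3 (-3.74) and Acot1 (an acyl-CoA thioesterase, -3.58). The Mup, Cyp2c, C4, Hamp and Acot genes have near-identical copies that can share reads, and exons of Hcn3 overlap those of Pklr on the other strand, so single values of these genes are uncertain.

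**Figure D2:**
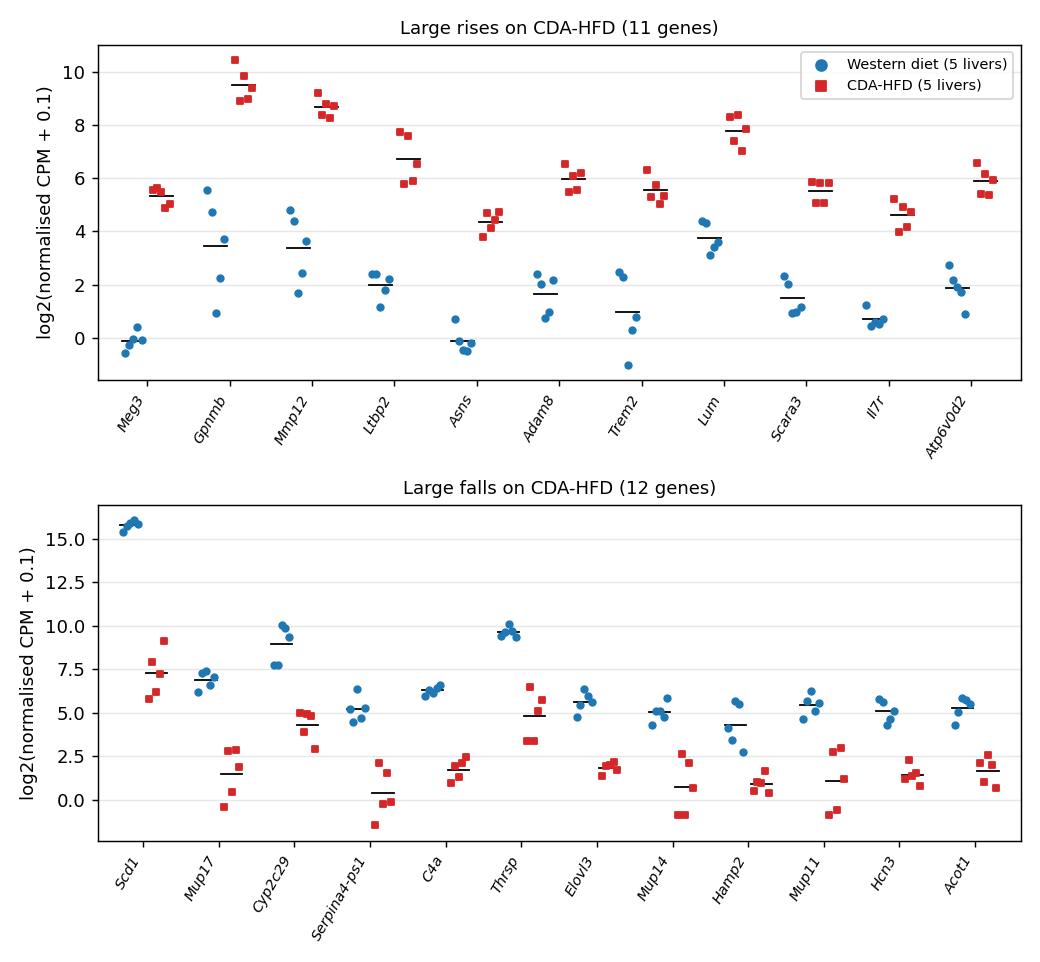
Log2(normalised CPM + 0.1) of 11 of the 12 genes with the largest rises and of the 12 with the largest falls, one point per liver (circles, 5 Western diet livers; squares, 5 CDA-HFD livers) and a bar at each group's mean. The groups do not overlap for any of these 23 genes, and Scd1 shows the largest gap.

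The gene lists below were chosen with earlier results of these data known. Shares of all genes set beside their counts describe the lists and do not test them. For every list these shares are 25.9% of tested genes higher and 25.2% lower. By at least 2-fold they are 12.9% and 6.1%. Sterol synthesis and sterol removal moved apart. Of 25 genes of sterol synthesis and SREBP2 targets, 12 rose and 6 fell, 8 and 1 of them by at least 2-fold, with a median log2 fold change of 0.41 beside -0.0032 for all genes tested. Sqle, squalene monooxygenase, stood at 26.8, 23.7, 6.74, 8.79 and 6.96 CPM on WD and 72.5, 107, 87.7, 123 and 94.6 CPM on CDA-HFD (2.73 ± 0.38, adjusted p = 0.000154). WD livers 1 and 2 were higher than WD livers 3 to 5, and every CDA-HFD liver lay above all of them. Idi1 (isopentenyl diphosphate isomerase, 2.25 ± 0.25) and Cyp51 (lanosterol demethylase, 1.77 ± 0.17) rose without overlap. Members that fell, named after their values were seen, included Acat2 (-1.03), Ebp (-0.84), Insig1 (-0.70), Sc5d (-0.66) and Tm7sf2 (-0.51). Insig1, itself an SREBP target, holds SREBP back, and Acat2, Ebp, Sc5d and Tm7sf2 encode enzymes of the pathway.

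Of 13 LXR targets and sterol efflux genes, 9 fell and 3 rose (median -0.67). Abcg5 and Abcg8, the paired transporters that send sterols into bile, fell most. Abcg5 stood at 177, 152, 311, 313 and 189 CPM on WD and 29.5, 50.3, 38.3, 58 and 33.1 CPM on CDA-HFD (-2.45 ± 0.25, adjusted p = 2.98e-05), and Abcg8 had a log2 fold change of -2.22 ± 0.24. On WD, livers 3 and 4 had the highest levels of both, and the lowest WD liver was above the highest CDA-HFD liver. Abca1, which loads cholesterol onto apolipoprotein A1, fell by less (-0.89 ± 0.095). The 3 that rose, Soat1 (2.05), Npc2 (1.11) and Abcg1 (0.71), encode a cholesterol esterifying enzyme, a lysosomal sterol carrier and a sterol exporter, and all 3 are also expressed by macrophages, whose marker genes rose in the same livers (below). The part of those cells in the values was not tested.

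De novo lipogenesis had the lowest median of the 39 gene lists described here. Of its 16 genes 15 fell, 14 of them by at least 2-fold (background 6.1%), none rose, and all 5 CDA-HFD livers lay below all 5 WD livers for 15. The median log2 fold change was -2.48 (-2.08 under library-size scaling). Srebf1, which encodes the transcription factor SREBP1, stood at 852, 715, 802, 866 and 802 CPM on WD and 124, 204, 114, 172 and 163 CPM on CDA-HFD (-2.38 ± 0.16, adjusted p = 3.27e-06). Fasn, fatty acid synthase, stood at 3777, 4980, 2929, 3195 and 2072 CPM on WD and 374, 595, 374, 496 and 469 CPM on CDA-HFD (-2.88 ± 0.24, adjusted p = 9.76e-06). Acacb (acetyl-CoA carboxylase 2, -3.52 ± 0.16) and Me1 (malic enzyme, a source of NADPH, -3.46 ± 0.17) had the smallest adjusted p-values of the list, 2.05e-07 and 3.16e-07. Scd2, the member that was not called, had a log2 fold change of 0.22. Among 10 polyunsaturated fatty acid desaturases, elongases and thioesterases, 7 fell and 2 rose (median -1.02). Elovl5, an elongase, stood at 1453, 1871, 1980, 2024 and 1698 CPM on WD and 204, 322, 244, 330 and 271 CPM on CDA-HFD (-2.72 ± 0.16), whereas the desaturases Fads1 (-0.93 ± 0.15) and Fads2 (-0.95 ± 0.16) fell by less than 2-fold. The 2 that rose were Elovl7 (1.53) and Elovl1 (0.30), named after their values were seen.

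Of 21 genes of glucose and fructose metabolism, 13 fell and 3 rose (median -0.80; 10 fell and 3 rose under library-size scaling). Khk, ketohexokinase, which starts fructose breakdown, stood at 408, 500, 482, 521 and 496 CPM on WD and 112, 153, 97.1, 136 and 96.6 CPM on CDA-HFD (-2.02 ± 0.14, adjusted p = 4.17e-06). Pygl (liver glycogen phosphorylase, -1.70 ± 0.15) fell without overlap. G6pc, the glucose-releasing phosphatase, ranged from 51.2 to 381 CPM on CDA-HFD and overlapped the 239 to 426 CPM on WD (-1.06 ± 0.45, adjusted p = 0.0703), and its call depended on the fit. It was called without CDA-HFD liver 4 (-1.62, adjusted p = 0.00324), with no filter on low counts (adjusted p = 0.0454), in a fit of all 20 livers (0.0314) and with the replicate number as a block (0.00534). The 3 that rose, Hk3 (1.68), Pkm (1.58) and Hk1 (1.27), encode hexokinase and pyruvate kinase forms of non-hepatocyte cells.

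**Figure D3:**
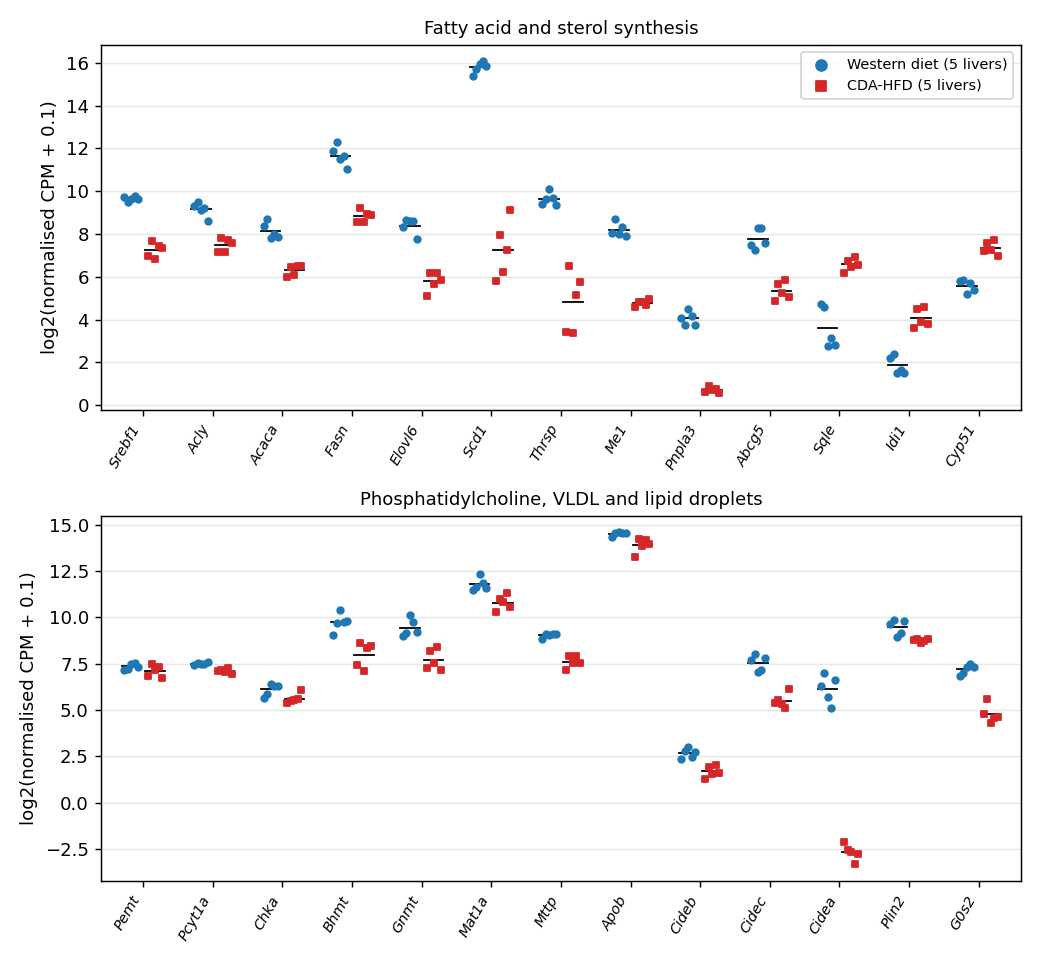
Log2(normalised CPM + 0.1) of genes of fatty acid and sterol synthesis (upper panel) and of phosphatidylcholine supply, VLDL and lipid droplets (lower panel), one point per liver (circles, 5 Western diet livers; squares, 5 CDA-HFD livers) and a bar at each group's mean. Fatty acid synthesis genes lie lower on CDA-HFD and Sqle, Idi1 and Cyp51 higher, while the Pemt points of the diets overlap and Cidea is close to 0 CPM on CDA-HFD.

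Choline deficiency acts on the pathways that make phosphatidylcholine. Of 28 genes of phosphatidylcholine synthesis and methyl supply, 19 fell and 3 rose (median -0.57, and -0.14 under library-size scaling, where 12 fell and 6 rose). Pemt, which methylates phosphatidylethanolamine to phosphatidylcholine and is the route that needs no dietary choline, stood at 144, 148, 178, 184 and 162 CPM on WD and 114, 177, 145, 157 and 105 CPM on CDA-HFD. These ranges overlapped, and no difference was detected (-0.22 ± 0.14, adjusted p = 0.205; 0.19 under library-size scaling). Chka, choline kinase alpha, overlapped between the diets (-0.50 ± 0.17, adjusted p = 0.0241), and leaving out any one of WD livers 3 to 5 or CDA-HFD livers 1 to 3 raised its adjusted p to as much as 0.0601, as did library-size scaling (-0.057, adjusted p = 0.758). Bhmt, which recovers methionine with choline-derived betaine, stood at 533, 833, 1353, 848 and 888 CPM on WD and 172, 391, 138, 321 and 352 CPM on CDA-HFD (-1.70 ± 0.31, adjusted p = 0.000892). Chpt1, cholinephosphotransferase, had the smallest adjusted p of the list (-1.91 ± 0.12, adjusted p = 2.85e-06). Pcyt1b, a second form of the enzyme that limits phosphatidylcholine synthesis from choline, stood at 0.407, 0.361, 0.0784, 0.103 and 0.0765 CPM on WD and 2.55, 2.42, 2.23, 2.38 and 2.47 CPM on CDA-HFD, a rise of 3.50 ± 0.34 from 1 to 5 reads per WD library. Mat2a, the methionine adenosyltransferase of non-hepatocyte and growing cells, named after its values were seen, rose as well (0.81).

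VLDL assembly and apolipoprotein genes were mostly lower, with 15 of 19 falling and 1 rising (median -0.80). Mttp, the transfer protein that loads lipid onto apolipoprotein B, stood at 455, 551, 533, 542 and 541 CPM on WD and 141, 237, 182, 241 and 184 CPM on CDA-HFD (-1.42 ± 0.14, adjusted p = 2.61e-05). Sar1b, a coat protein for lipoprotein export (-1.23 ± 0.092), and Tm6sf2, a VLDL lipidation factor (-1.06 ± 0.17), fell with non-overlapping groups. Apob was lower in each CDA-HFD liver, at 9675, 19196, 14672, 18496 and 15654 CPM against 20700, 23509, 24337, 24142 and 23770 CPM on WD, but did not pass the test (-0.58 ± 0.23, adjusted p = 0.054). DESeq2 called it (adjusted p = 0.00124), and its adjusted p over all other settings was 0.0372 to 0.35. Apom (0.54) was the member that rose.

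Of 18 lipid droplet genes 17 were tested, 13 fell, none rose, and the median was -1.0 (-0.58 under library-size scaling). The CIDE proteins fuse lipid droplets, and all 3 of their genes were lower on CDA-HFD than on WD. The study reports that both diets raised Cidea and Cidec mRNA and that Cideb stayed relatively stable between diets. That report comes from its diet experiment in wild-type mice, which included normal chow and had its own feeding times. A rise on both diets is another comparison than CDA-HFD against WD, and this series holds no chow-fed liver to set beside it. Cidea stood at 79.2, 128, 52.4, 34.9 and 96.5 CPM on WD and 0.131, 0.0735, 0.0573, 0 and 0.0494 CPM on CDA-HFD, or 4658 reads over the 5 WD libraries and 5 reads over the 5 CDA-HFD libraries (-10.11 ± 0.55, adjusted p = 9.31e-07). Cidec stood at 210, 263, 134, 144 and 221 CPM on WD and 41.4, 45.9, 40.4, 34.5 and 68.7 CPM on CDA-HFD (-2.07 ± 0.22, adjusted p = 3.68e-05). Cideb, the gene the series was built to delete (chr14:55754050-55758458, minus strand), stood at 4.97, 6.87, 7.84, 5.38 and 6.58 CPM on WD and 2.29, 3.75, 2.86, 3.99 and 2.96 CPM on CDA-HFD (-1.0 ± 0.19, adjusted p = 0.00094). These are 35 to 100 reads per library, and Cideb shares exon sequence with Nop9 on the opposite strand, so part of its reads may not have been counted to it. In the 10 KO livers Cideb had 0 to 6 reads. Lipe (hormone-sensitive lipase, -1.48 ± 0.11) fell as well. Plin2, the coat protein of hepatocyte droplets, which the macrophage list holds, also fell (-0.77 ± 0.17, adjusted p = 0.00253).

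Fatty acid oxidation genes were lower in both organelles. Of 24 genes of mitochondrial beta-oxidation and ketogenesis 23 were tested, 21 fell and 1 rose (median -0.88). Cpt1a, which admits fatty acids to mitochondria, stood at 960, 1162, 1236, 1144 and 1169 CPM on WD and 554, 794, 697, 910 and 625 CPM on CDA-HFD (-0.66 ± 0.14, adjusted p = 0.00233). Acadm (-1.01 ± 0.14) and Eci1 (-1.35 ± 0.14) fell without overlap. The member that rose was Acss1 (1.76), an acetyl-CoA synthetase. Of 28 peroxisome genes 23 fell and 2 rose (median -1.02). Acaa1b, a thiolase, stood at 1816, 2145, 1781, 2208 and 1844 CPM on WD and 372, 388, 384, 408 and 230 CPM on CDA-HFD (-2.46 ± 0.17, adjusted p = 3.56e-06). Ehhadh (-1.73 ± 0.20), Pex11a (-1.60 ± 0.17) and Pex16 (-1.24 ± 0.10), enzymes and assembly factors of the organelle, fell likewise. Far1 (1.39) and Agps (0.73), both of ether lipid synthesis, were the 2 that rose.

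Of 24 PPAR receptors and targets, 15 fell and 3 rose (median -0.77). Ppara, the receptor that drives these oxidation genes, stood at 798, 877, 1125, 1196 and 970 CPM on WD and 243, 460, 323, 421 and 335 CPM on CDA-HFD (-1.48 ± 0.18, adjusted p = 6.88e-05). Pparg, which is raised in steatotic livers, was lower on CDA-HFD (-0.72 ± 0.14), with 24.5 to 26.3 CPM in the 5 CDA-HFD livers, and was not called under library-size scaling (-0.31, adjusted p = 0.15). Mogat1, an acyltransferase under Pparg control, stood at 10.1, 13, 5.02, 6.82 and 11.5 CPM on WD and 0.131, 0.294, 0.286, 0.28 and 0.247 CPM on CDA-HFD (-5.18 ± 0.34, 2 to 5 reads per CDA-HFD library). Fabp2 fell without overlap (-1.68 ± 0.15). Cyp4a14, an omega-hydroxylase with close copies, ranged from 36.5 to 331 CPM on CDA-HFD and from 230 to 846 CPM on WD (-1.67 ± 0.55, adjusted p = 0.0249), and lost its call when WD liver 3 or 4 was left out (adjusted p up to 0.0577) and under library-size scaling (adjusted p = 0.0744).

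Of 25 bile acid genes 23 were tested, 17 fell and 1 rose (median -0.68, and -0.25 under library-size scaling). Cyp7a1, the rate-limiting enzyme of bile acid synthesis, ranged widely within both diets, at 96.6, 173, 377, 108 and 147 CPM on WD and 131, 262, 293, 642 and 194 CPM on CDA-HFD (0.75 ± 0.45, adjusted p = 0.18). WD liver 3 was the high one of its group, and without it the log2 fold change was 1.21 with an adjusted p of 0.0283. Cyp27a1, which starts the alternative route (-1.24 ± 0.16), Abcb11, the bile salt export pump (-0.68 ± 0.15), and Abcc3, a basolateral exporter (-1.01 ± 0.11), fell without overlap. Under library-size scaling Abcb11 was not called (-0.24, adjusted p = 0.105), and neither was Cyp8b1 (-1.01, adjusted p = 0.0674). Cyp8b1 fell on average (-1.37 ± 0.49, adjusted p = 0.0344) but ranged from 20.7 to 178 CPM on CDA-HFD, and the call was lost (adjusted p up to 0.0767) without WD liver 2, 3 or 5 or CDA-HFD liver 1 or 3. Abcc4 (0.78), another exporter, was the member that rose.

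Of 32 cytochrome P450 genes of families 1 to 3, 27 were tested, 19 fell, 16 of them by at least 2-fold, and 2 rose (median -1.16). Cyp2d9, a male-biased enzyme, stood at 550, 567, 510, 569 and 559 CPM on WD and 58.2, 118, 69.2, 83.3 and 130 CPM on CDA-HFD (-2.59 ± 0.20, adjusted p = 8.28e-06). Cyp2b10, a target of the xenobiotic receptor CAR named after its values were seen, had 635 reads over the WD libraries and 3 over the CDA-HFD libraries, a ratio of 291 after scaling with a 95% counting interval of 99.6 to 1410. Cyp3a11 did not pass the test (-0.24 ± 0.24, adjusted p = 0.415; 0.20 under library-size scaling). Cyp2e1 overlapped between the diets (-0.69 ± 0.27, adjusted p = 0.0468), and 7 of the 10 fits with a liver left out did not call it, nor did the fit with library-size scaling (-0.28, adjusted p = 0.269). The 2 that rose were Cyp1b1 (2.34 ± 0.24), which stellate cells express, and Cyp1a2 (0.83 ± 0.28), whose call was lost without WD liver 1 or CDA-HFD liver 2 or 3 (adjusted p up to 0.058). Genes that growth hormone keeps high in male liver moved the same way, with 15 of 23 tested members lower and none higher (median -1.16). Elovl3 stood at 27.6, 44.4, 84, 63.4 and 48.8 CPM on WD and 2.55, 3.75, 3.95, 4.41 and 3.26 CPM on CDA-HFD (-3.90 ± 0.28). Igf1 overlapped and was not called (-0.36 ± 0.19, adjusted p = 0.138; 0.049 under library-size scaling), and Hsd3b5 was too low to test, at 0.163 to 9.32 CPM on WD and 0 to 0.882 CPM on CDA-HFD.

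Genes of proteins that hepatocytes secrete into blood were also mostly lower. Of 31 such genes, 18 fell and 2 rose (median -0.55, and -0.14 under library-size scaling, where 6 fell and 4 rose). Alb (albumin) took 4.16% to 6.03% of reads on WD and 3.12% to 5.8% on CDA-HFD, and its normalised level was not called (-0.62 ± 0.32, adjusted p = 0.125; DESeq2 0.0156). Ttr (-1.05 ± 0.24), C4b (-0.81 ± 0.13) and F9 (-0.79 ± 0.15) fell without overlap, and Serpina1a, one of several near-identical copies, was not called (-0.17 ± 0.24). C3 (0.63) and Ahsg (0.62) were the 2 that rose. In bulk tissue, fewer hepatocytes and less RNA of a gene per hepatocyte cannot be told apart.

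Of 32 genes of the urea cycle and amino acid catabolism 29 fell, 21 of them by at least 2-fold, and none rose (median -1.16; 26 fell under library-size scaling). Arg1, arginase, stood at 745, 815, 960, 841 and 630 CPM on WD and 191, 370, 260, 463 and 298 CPM on CDA-HFD (-1.33 ± 0.21, adjusted p = 0.000354). Ass1 (-1.0 ± 0.23), Prodh (proline dehydrogenase, -1.29 ± 0.13) and Uroc1 (urocanase of histidine breakdown, -1.94 ± 0.27) fell without overlap. Cps1, which starts the urea cycle, overlapped between the diets (-0.82 ± 0.33, adjusted p = 0.0523), and its call depended on the fit. DESeq2 called it (0.0196), as did edgeR with no filter (0.0351), over all 20 livers (0.0382) and with the replicate block (0.0228). It was also called without WD liver 5 (0.0355) or CDA-HFD liver 4 (0.0129). Of 20 hepatocyte nuclear receptors and transcription factors 16 fell and 1 rose (median -0.69). Hnf4a (-0.72 ± 0.17), a master regulator of hepatocyte genes, overlapped slightly between the diets, whereas Cebpa (-0.96 ± 0.13) and Nr1i2 (the xenobiotic receptor PXR, -0.99 ± 0.096) did not. Nr1i3 (-0.61 ± 0.21, adjusted p = 0.0303) lost its call in 6 of 10 fits with a liver left out (adjusted p up to 0.0737). Under library-size scaling neither Hnf4a (-0.29, adjusted p = 0.0528) nor Nr1i3 (-0.19, adjusted p = 0.325) was called. Tox3 rose, at 0.815, 1.36, 0.94, 0.31 and 0.765 CPM on WD and 8.83, 7.64, 10.4, 4.82 and 7.5 CPM on CDA-HFD (3.20 ± 0.29).

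All 42 respiratory chain genes fell, 1 of them by 2-fold, and the median was -0.67. The groups did not overlap for 40 of them (background 18.1%). Sdha, a complex II subunit, stood at 615, 660, 721, 705 and 709 CPM on WD and 319, 375, 327, 391 and 289 CPM on CDA-HFD (-1.0 ± 0.10, adjusted p = 3.16e-05). Cox5a (-0.71 ± 0.086), Ndufb3 (-0.87 ± 0.091) and Ndufa1 (-0.44 ± 0.11) fell by less. Under library-size scaling 23 of the 42 were lower, none higher, and Ndufa1 was at -0.0088 (adjusted p = 0.956). Genes of the pericentral zone had no common direction, with 6 of 19 higher and 4 lower (median 0.15), beside 25.9% and 25.2% of all tested genes. Glul, glutamine synthetase of the last hepatocytes before the central vein, stood at 1715, 1979, 1479, 1540 and 1881 CPM on WD and 2206, 1391, 2033, 1519 and 1084 CPM on CDA-HFD, with no detected difference (-0.062 ± 0.19, adjusted p = 0.806; 0.37 under library-size scaling). Rhbg, an ammonium transporter of the same cells, rose (1.24 ± 0.19, adjusted p = 0.000279), and Oat fell (-1.20 ± 0.30).

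**Figure D4:**
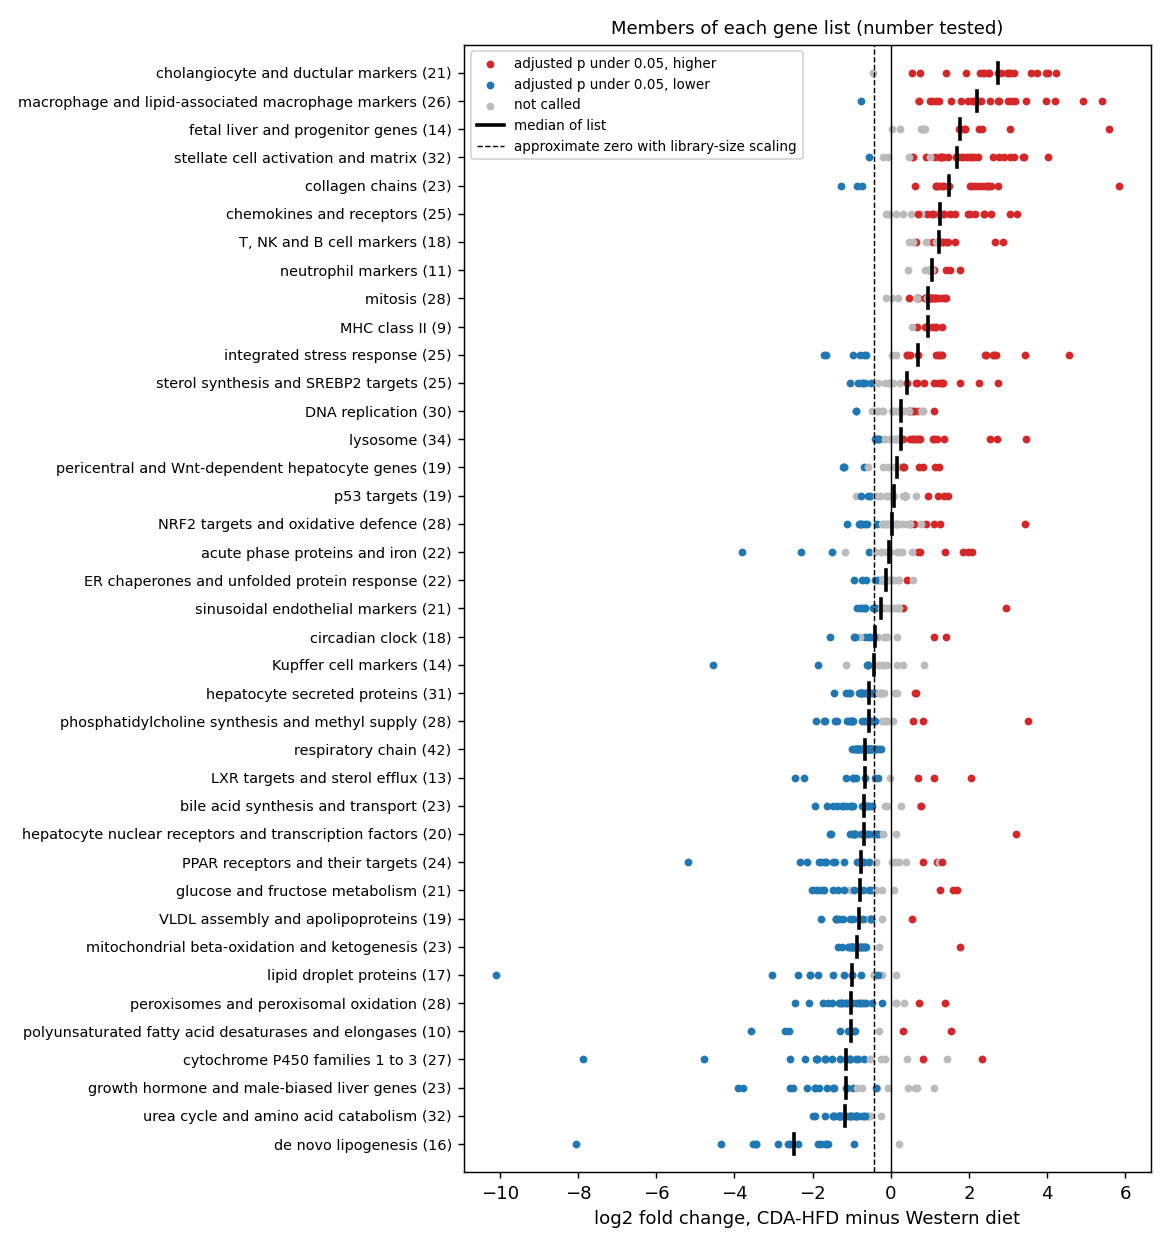
Log2 fold change (CDA-HFD minus Western diet) of each tested member of 39 gene lists, one point per gene, coloured by the edgeR call, with a bar at the list's median. Lists are ordered by median, from -2.48 for de novo lipogenesis to 2.75 for cholangiocyte markers. The dashed line marks about where 0 would lie with library-size scaling (a shift of 0.42). Between the lines, sinusoidal endothelial and ER chaperone genes turn positive there, and circadian clock genes stay just below 0 (-0.0046).

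Amino acid stress genes were mostly higher. The integrated stress response (ISR) is the program of the factor ATF4, which binds C/EBP-ATF elements when translation is held back. Of 25 ISR genes 15 rose and 6 fell (median 0.70), 11 and 2 by at least 2-fold. The element's core TGATGNAA, searched on both strands (TTNCATCA on the other) from 250 bases before to 50 after each annotated start (RefSeq promoters, GRCm38.p6), was found for 9 of 23 ISR genes with a promoter in the table (39.1%) and for 1219 of 27025 genes in all (4.51%). The list names genes of the ATF4 program. A higher share of its motif can follow from that choice, so these shares are not a test. Trib3, 1 of the 9 genes with the motif, was not called (0.69, adjusted p = 0.155) and holds the motif after its RefSeq start, where no window is shown. The 30-base windows below show the motif, in capitals, before the RefSeq starts of 5 genes that rose and of 3 that fell or were not called, written along each gene's strand.
Asns (chr6:7693214-7693243, minus strand): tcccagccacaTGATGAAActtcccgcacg
Slc7a11 (chr3:50443661-50443690, minus strand): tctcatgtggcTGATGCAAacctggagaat
Atf3 (chr1:191183425-191183454, minus strand): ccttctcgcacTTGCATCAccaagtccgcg
Nupr1 (chr7:126625562-126625591, minus strand): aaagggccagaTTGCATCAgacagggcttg
Pycr1 (chr11:120643833-120643862, minus strand): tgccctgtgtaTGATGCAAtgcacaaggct
Chac1 (chr2:119351038-119351067, plus strand): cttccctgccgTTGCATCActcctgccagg
Vldlr (chr19:27216809-27216838, plus strand): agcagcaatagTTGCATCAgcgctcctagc
Fgf21 (chr7:45615611-45615640, minus strand): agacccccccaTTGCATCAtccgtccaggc
GENCODE M21 begins some of these genes further upstream, and by its gene positions the motifs of Asns, Nupr1 and Vldlr lie in an exon of the gene, that of Atf3 in an intron and the others before the gene. Slc7a11 holds a second copy nearer its start. A match is a description of these letters and says nothing of binding in these livers.

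Asns stood at 1.55, 0.813, 0.627, 0.62 and 0.765 CPM on WD and 13.8, 25.6, 17.4, 21.4 and 26.5 CPM on CDA-HFD (4.56 ± 0.27, adjusted p = 1.75e-06). Slc7a11, the cystine importer, stood at 1.3, 0.542, 0.94, 0.93 and 3.06 CPM on WD and 18.9, 11, 13.9, 9.3 and 22.4 CPM on CDA-HFD (3.44 ± 0.39, adjusted p = 4.93e-05). Atf3 (2.41 ± 0.30), Nupr1 (2.69 ± 0.58) and Pycr1 (1.26 ± 0.32) rose as well. Chac1, which degrades glutathione and carries the same motif, stood at 7.74, 5.51, 9.72, 7.75 and 10.3 CPM on WD and 1.31, 0.735, 2.12, 1.4 and 6.96 CPM on CDA-HFD (-1.66 ± 0.48, adjusted p = 0.0124), with CDA-HFD liver 5 inside the WD range. Vldlr also fell (-1.72 ± 0.18, adjusted p = 3.2e-05). Fgf21 was set by one library: CDA-HFD liver 5 stood at 33.4 CPM, the other 4 at 5.1 to 9.88 CPM and the WD livers at 4.24 to 6.32 CPM (1.24 ± 0.51, adjusted p = 0.06; 0.37 on the log2 scale without that liver). Atf4 itself rose by little (0.42 ± 0.1), and so did Ddit3 (0.40 ± 0.14, adjusted p = 0.0273), whose call was lost in 5 of 10 fits with a liver left out. Among 22 ER chaperone and unfolded protein response genes 6 fell and 1 rose (median -0.13; 13 rose and 2 fell under library-size scaling, with a median of 0.30). The 6 that fell are near the 25.2% of all tested genes that were lower. Hspa5, the main ER chaperone, stood at 335 to 509 CPM on WD and 361 to 496 CPM on CDA-HFD (0.037 ± 0.13, adjusted p = 0.833), and Xbp1 (0.0036) and Dnajb9 (0.086) were not called. Edem1 (-0.74 ± 0.14) and Sel1l (-0.63 ± 0.1), of ER-associated degradation, fell.

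Of 28 NRF2 targets and oxidative defence genes 6 rose and 8 fell (median 0.024; 16 rose and 5 fell under library-size scaling). These counts are near the 25.9% higher and 25.2% lower of all tested genes. Nqo1 (0.49 ± 0.11) and Hmox1 (0.91 ± 0.26) rose, whereas Gclc, of glutathione synthesis (-0.66 ± 0.16), and Gstm4, a glutathione transferase (-1.11 ± 0.091), fell. Gclc was not called under library-size scaling (-0.24, adjusted p = 0.219). Acute phase and iron genes had 6 of 22 higher and 4 lower, beside the same shares of all genes (median -0.048; 12 and 2 under library-size scaling). Lcn2, an iron-binding acute phase protein, stood at 86, 69.9, 32.4, 35 and 130 CPM on WD and 257, 229, 183, 178 and 629 CPM on CDA-HFD (2.06 ± 0.45, adjusted p = 0.00249). Saa3 rose (1.96 ± 0.24) and Orm3 fell (-2.31 ± 0.29). Saa1 (-1.18 ± 0.52, adjusted p = 0.0783) and Hamp (0.28 ± 0.23, adjusted p = 0.336) overlapped between the diets, with WD liver 5 at 296 CPM for Saa1 against 49.5 to 77 CPM in the other WD livers.

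Genes of macrophages that take up lipid rose across the list. Of 26 markers 24 rose, 23 by at least 2-fold, 1 fell, and their summed level was 900.4 to 2258 CPM on WD and 3513 to 6930 CPM on CDA-HFD (median log2 fold change 2.19). Beside Gpnmb, Trem2 stood at 5.46, 4.79, 0.392, 1.14 and 1.61 CPM on WD and 78.5, 39.5, 54, 32.7 and 40.6 CPM on CDA-HFD (4.19 ± 0.48, adjusted p = 5.25e-05). Mmp12 stood at 27.5, 20.8, 3.13, 5.38 and 12.2 CPM on WD and 588, 332, 443, 305 and 421 CPM on CDA-HFD, and Cd68, a general macrophage marker, at 31.9, 19.2, 10.3, 13.9 and 17.1 CPM and 125, 75, 98.9, 70.2 and 88.8 CPM (2.31 ± 0.27). For each of these genes WD livers 1 and 2 were the highest of their group, and CDA-HFD liver 1 was the highest of all 10. Adgre1, which encodes F4/80, was not called (0.69 ± 0.34, adjusted p = 0.107). The markers of resident Kupffer cells did not rise with them: of 14 none rose and 5 fell (median -0.44, and -0.034 under library-size scaling). Of all tested genes 25.9% were higher and 25.2% lower. All CDA-HFD livers lay below all WD livers for 1 of the 14, beside 18.1% of all tested genes. Cd163 stood at 10.1, 7.41, 33.7, 22.7 and 24.6 CPM on WD and 0.654, 1.76, 0.401, 1.33 and 0.296 CPM on CDA-HFD (-4.54 ± 0.53, adjusted p = 5.72e-05). Folr2 (-0.60 ± 0.17), Timd4 (-1.85 ± 0.62) and Clec4f (-0.57 ± 0.21) fell with overlapping groups, and Vsig4 was not called (-0.20 ± 0.23). Library-size scaling ended the calls of Folr2 (-0.20, adjusted p = 0.412), Timd4 (-1.45, adjusted p = 0.0685) and Clec4f (-0.17, adjusted p = 0.511). The calls of Timd4 (adjusted p up to 0.0679) and Clec4f (up to 0.105) were lost in 4 and 7 of the 10 fits with a liver left out, and with WD livers 3 to 5 only, 2 of the 14 rose and 2 fell.

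Of 23 T, NK and B cell markers 18 were tested and 13 rose (median 1.22), with a summed level of 17.1 to 40 CPM on WD and 69 to 143.9 CPM on CDA-HFD. Jchain, of plasma cells, stood at 9.61, 9.12, 5.33, 8.37 and 5.66 CPM on WD and 91.1, 40.3, 78, 32.9 and 36 CPM on CDA-HFD (2.87 ± 0.32, adjusted p = 4.64e-05). Ltb rose (2.67 ± 0.38), Cd8a rose (1.33 ± 0.44; lost without WD liver 3 or 5, adjusted p up to 0.0628), Cd3e was not called (0.97 ± 0.39, adjusted p = 0.0547), and Cd79a was too low to test. DESeq2 called Cd3e (adjusted p = 0.0353), as did edgeR with no filter (0.0491), over all 20 livers (0.0478) and under library-size scaling (0.013). It was also called without WD liver 1 (0.00817) or CDA-HFD liver 5 (0.0488), and with WD livers 3 to 5 only (0.00235). Of 15 neutrophil markers 11 were tested and 5 rose (median 1.05), beside 25.9% of all tested genes. Among those that rose were Csf3r (1.10 ± 0.25), Retnlg (1.76 ± 0.45) and Cxcr2 (0.99 ± 0.34). S100a9 rested on CDA-HFD liver 1, at 27.8 CPM against 8.52 to 10.4 CPM in the other 4 (1.40 ± 0.54, adjusted p = 0.0466), and S100a8 was not called (1.07 ± 0.58). With WD livers 3 to 5 only, 10 of the 11 rose. Cxcr2 lost its call in 6 of the 10 fits with a liver left out (adjusted p up to 0.066) and S100a9 in 7 (up to 0.139). Of 9 tested MHC class II genes 8 rose (median 0.95) with groups that overlapped for all 9, including Cd74 (0.95 ± 0.27), H2-Aa (1.06 ± 0.31), H2-DMb1 (1.15 ± 0.32) and H2-Ab1 (0.92 ± 0.30; adjusted p up to 0.0587 with a liver left out). WD liver 1, at 326 CPM for Cd74, lay within the CDA-HFD range of 300 to 400 CPM. Of 25 tested chemokines and receptors 18 rose and none fell (median 1.25), with Cxcr4 (2.55 ± 0.29) and Ccr7 (2.39 ± 0.26) free of overlap, Cxcl10 (1.17 ± 0.25) and Ccl2 (0.93 ± 0.30; adjusted p 0.0514 without WD liver 4) overlapping, and Cxcl1 not called (-0.053 ± 0.29).

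Of 32 tested genes of stellate cell activation and matrix 27 rose, 24 by at least 2-fold, and 1 fell (median 1.70). Lum stood at 20.9, 20, 8.46, 10.5 and 11.9 CPM on WD and 313, 168, 333, 128 and 229 CPM on CDA-HFD (4.03 ± 0.34, adjusted p = 1.02e-05). Timp1, an inhibitor of matrix proteases, stood at 2.04, 1.08, 0.313, 0.724 and 1.68 CPM on WD and 6.61, 7.05, 7.68, 5.24 and 13.8 CPM on CDA-HFD (2.77 ± 0.40, adjusted p = 0.000178). Pdgfrb, the growth factor receptor of stellate cells (1.73 ± 0.25), and Dpt (3.04 ± 0.27) rose without overlap, whereas Acta2, smooth muscle actin, overlapped and was highest in CDA-HFD liver 5 at 22.1 CPM against 8.6 to 10.7 CPM in the others (1.12 ± 0.33, adjusted p = 0.0151). Fn1, which hepatocytes also make, was the member that fell (-0.56). Of 23 collagen chains 20 rose and 3 fell (median 1.49). Col1a1 stood at 191, 160, 44.8, 63.3 and 204 CPM on WD and 824, 522, 814, 477 and 1019 CPM on CDA-HFD (2.46 ± 0.41, adjusted p = 0.000462), and Col3a1 (2.06 ± 0.34), Col4a1 (1.16 ± 0.20), Col6a3 (2.73 ± 0.27) and Col15a1 (2.56 ± 0.24) rose without overlap. On WD, livers 1, 2 and 5 had 160 to 204 CPM of Col1a1 and livers 3 and 4 had 44.8 and 63.3 CPM. Col28a1, named after its values were seen, had 2 reads over the WD libraries and 195 over the CDA-HFD libraries, a ratio of 70.9 after scaling with a 95% counting interval of 19.6 to 586. The 3 chains that fell were Col5a3 (-1.28), Col27a1 (-0.87) and Col18a1 (-0.75).

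Bile duct markers had the highest median of the lists, which were chosen with earlier results of these data known. Of 22 markers 21 were tested, 20 rose, 18 by at least 2-fold (background 12.9%), none fell, and the median was 2.75. Epcam stood at 2.28, 2.26, 0.47, 1.24 and 1.15 CPM on WD and 21.7, 13.5, 19, 11.3 and 23.1 CPM on CDA-HFD (3.59 ± 0.34, adjusted p = 1.85e-05). Krt19 (2.37 ± 0.27), Sox9 (1.41 ± 0.16), Pkhd1 (1.92 ± 0.16), Prom1 (2.83 ± 0.25) and Cd24a (3.04 ± 0.29) rose without overlap, and Krt23 was not called (-0.46). Sinusoidal endothelial markers did not follow: of 21 tested 10 fell and 2 rose (median -0.25), and under library-size scaling 4 fell and 6 rose (median 0.19). Stab2 stood at 212, 206, 201, 197 and 225 CPM on WD and 89.7, 139, 125, 149 and 110 CPM on CDA-HFD (-0.76 ± 0.12, adjusted p = 0.000422), Oit3 fell (-0.87 ± 0.12), and Lyve1 (-0.38 ± 0.16; 0.053 under library-size scaling) and Clec4g (0.13 ± 0.079) were not called. Cd34, absent from most normal sinusoids, rose from 1.63, 3.25, 1.1, 1.76 and 1.53 CPM on WD to 21, 8.74, 19.5, 7.55 and 14.1 CPM on CDA-HFD (2.95 ± 0.36, adjusted p = 6.67e-05).

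**Figure D5:**
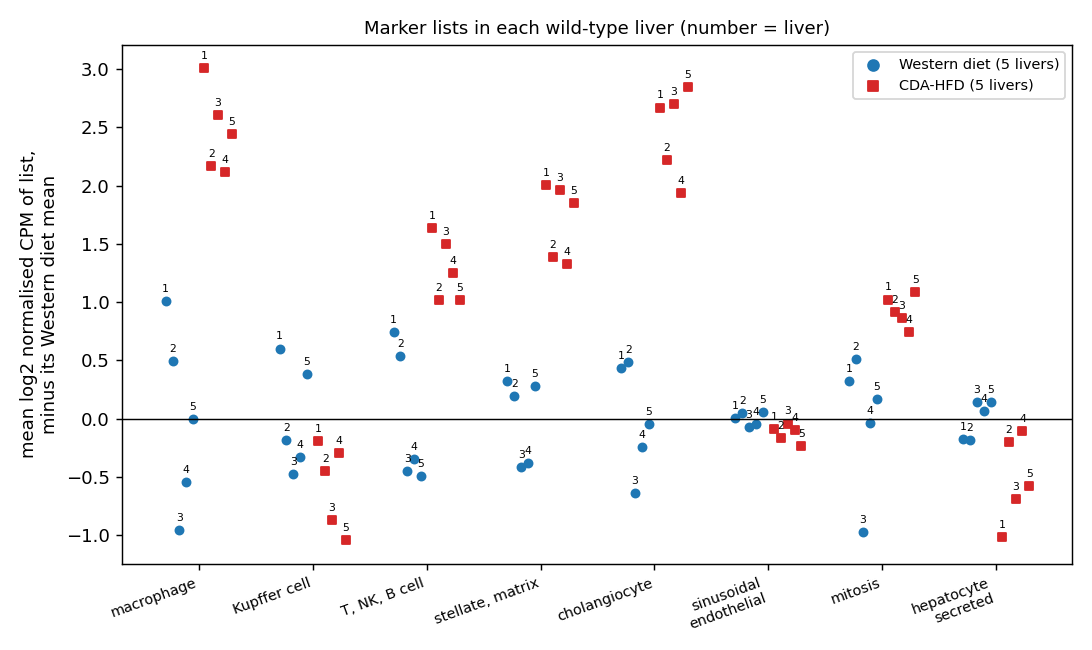
Mean log2 normalised CPM of the tested members of 8 lists in each wild-type liver, less the list's Western diet mean, with the liver's number at each point (circles, Western diet; squares, CDA-HFD). All CDA-HFD livers lie above all WD livers for the macrophage, lymphocyte, stellate, cholangiocyte and mitosis lists. The median of the sinusoidal endothelial list is -0.25 here and 0.19 under library-size scaling.

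Of 28 tested mitosis genes 22 rose, 12 by at least 2-fold, and none fell (median 0.96). Top2a stood at 18.9, 17.3, 6.27, 12.4 and 13.8 CPM on WD and 31.7, 22, 25.6, 23 and 35.9 CPM on CDA-HFD (1.01 ± 0.25, adjusted p = 0.00502), and Cdk1 (0.87 ± 0.23), Ccnb1 (1.40 ± 0.34), Ccnb2 (1.17 ± 0.23) and Tpx2 (1.40 ± 0.27) rose without overlap. WD liver 3 was the lowest of all livers for each of these 5 genes. Of 30 DNA replication genes 6 rose, near the 25.9% of all tested genes that were higher, and 2 fell (median 0.25; 21 rose and 1 fell under library-size scaling). Mki67 rose (1.11 ± 0.26), Pcna rose (0.54 ± 0.13), Mcm2 was not called (0.30 ± 0.24), and Tk1 fell (-0.90 ± 0.16). The lists were not tested against each other.

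Of 17 fetal liver and progenitor genes 14 were tested, 9 rose and none fell (median 1.77). Beside Meg3 and Cd24a, Gpc3 stood at 2.04, 1.72, 1.49, 1.86 and 1.68 CPM on WD and 21.2, 3.75, 10.1, 4.69 and 4.54 CPM on CDA-HFD (2.33 ± 0.48, adjusted p = 0.00182). Afp (0.82 ± 0.29, adjusted p = 0.0331) and H19 (1.88 ± 0.71, adjusted p = 0.0432) passed the test with overlapping groups. H19 stood at 13.8 and 13.4 CPM in WD livers 1 and 2 and at 0.627 to 1.15 CPM in the other 3. Leaving out a liver ended the call of Afp in 5 of 10 fits (adjusted p up to 0.0767) and of H19 in 6 (up to 0.0858).

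The same diet contrast in the 10 KO livers shares no sample with the WT contrast, and the 2 diet effects were compared by an interaction term over all 20 livers. At an adjusted p under 0.05, 99 of 17804 genes (0.556%) had a different diet effect in WT livers (59 lower, 40 higher than in KO). Rpl26, a ribosomal protein gene, stood at 33.3 to 42.7 and 50.2 to 65.9 CPM in WT livers on WD and CDA-HFD, a rise, and at 41 to 49.1 and 30.5 to 36.8 CPM in KO livers (WT minus KO, 0.98 ± 0.122, adjusted p = 0.0017). Rpl32 differed in the same sense (0.80 ± 0.106), as did Steap2, a metalloreductase (1.72 ± 0.237). Xdh, xanthine dehydrogenase, was at 296 to 386 CPM on WD and 309 to 324 CPM on CDA-HFD in WT livers, and at 504 to 559 CPM in KO livers on CDA-HFD (-0.90 ± 0.116, adjusted p = 0.0017). Esm1, an endothelial proteoglycan, fell less in WT (3.38 ± 0.487, adjusted p = 0.00342). Ribosomal protein genes have many processed copies in the genome, so the values of Rpl26 and Rpl32 are uncertain. The following list members also differed, 1 each of the fetal liver (14 tested), lipid droplet (17), urea cycle (32), bile acid (23) and chemokine (25) lists. They are single genes and no result about their lists, and their share was not compared with the 0.556% of all genes. Meg3 rose less in WT than in KO livers (-2.29 ± 0.363, adjusted p = 0.00704), and Lipe (-0.99 ± 0.182), Prodh (-1.24 ± 0.209) and Abcc3 (-0.70 ± 0.156, adjusted p = 0.0475) fell more. Cxcl5, a neutrophil-attracting chemokine, named after its values were seen, stood at 0.086 to 0.784 and 2.28 to 3.7 CPM in WT livers on WD and CDA-HFD and at 0.0783 to 0.644 and 0.0634 to 0.399 CPM in KO livers (4.01 ± 0.748, adjusted p = 0.0176, and 0.0506 without KO WD liver 1). The WT livers did not overlap between diets, and outside WT livers on CDA-HFD (34 to 67 reads) Cxcl5 rested on 1 to 10 reads per library. The difference of Abcc3 was lost in 18 of 20 fits with a liver left out (adjusted p up to 0.106), and that of Lipe under library-size scaling (adjusted p = 0.0841). The count of differing genes rested on single libraries: it was 2138 without KO CDA-HFD liver 5 and 35 to 105 without each other liver in turn.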

How the data were processed

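Liver RNA-seq was measured in 20 libraries, 10 of them wild-type. The deposited tables hold raw read counts per gene, which the authors made against mm10 per the labels. The aligner and the counter are not given in the sources used here. The labels name a directional library kit and the study's methods another kit, so the strand setting of the counting is unknown and overlapping genes are uncertain. The 5 entries for unassigned reads were left out of totals and tests (for example 23.2% to 27.6% of reads were on no gene). Replicates were not pooled, and each library had 11697049 to 16827147 reads on genes in the wild-type livers.

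Genes were filtered with edgeR's filterByExpr, scaled by TMM and tested with edgeR's quasi-likelihood test (edgeR 4.0.16, R 4.3.3) on the 10 wild-type livers with diet as the only term, with Benjamini-Hochberg adjustment over all 16726 genes and a threshold of 0.05. The diet by virus interaction was tested over all 20 livers. The study names no RNA-seq test. The alternatives were RLE factors, library size only, DESeq2 1.42.0, no filter, 10 counts in every library, all 20 livers, the replicate number as a block, a test against a fold of 2 and each liver left out. A fit with WD livers 3 to 5 only was added after seeing the data. Single values used exact permutation tests, and read ratios have 95% intervals that cover counting error only. Livers of one group differed by more than sampling noise, so none was counted as a copy. The edgeR fits were also run on simulated data in which few genes changed, as many up as down, with no scaling difference between the diets. That run therefore does not bear on the choice of scaling or on a contrast that moves this many genes.

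The members and the 40 gene lists were chosen with earlier results of these data known. Genes named are Cideb, Cidea and Cidec, the 12 largest rises and 12 largest falls among called genes whose mean was 2 or more on the log2 CPM scale and whose diets did not overlap (predicted and clone-named genes left out), the first 3 genes of each list and its 2 members with the smallest adjusted p, and 5 genes of the interaction. Others are named where a count was 5 or fewer, or where the text singles them out after their values were seen. Some genes that meet these rules are not reported here. Gene positions come from GENCODE M21 (GRCm38), and promoters from RefSeq (GRCm38.p6).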

Additional observations from a re-analysis of the deposited data

Results flagged for a closer look

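Of 390 groups of 5 livers, 23 held a liver far from the other 4 (gap over range above 0.71, Dixon's critical value), and chance alone gives about 1 in 20. CDA-HFD liver 5 accounted for 8 of these values. It was high for Fgf21 (33.4 CPM), Lcn2 (629 CPM), Cdkn1a (35.9 CPM), Acta2 (22.1 CPM), Timp1 (13.8 CPM) and Chka (66.9 CPM), and low for Acaa1b (230 CPM) and Abcb11 (298 CPM). WD liver 1 accounted for 5, high for Asns (1.55 CPM) and Il7r (2.28 CPM) and low for Mttp (455 CPM), Apob (20700 CPM) and Eci1 (122 CPM). WD liver 5 was high for Saa1 (296 CPM), Gclc (494 CPM) and Krt19 (2.83 CPM) and low for Fads1 (733 CPM). WD liver 3 was high for Serpina4-ps1 (81.7 CPM), Abca1 (902 CPM) and Cyp7a1 (377 CPM). CDA-HFD liver 1 was high for S100a9 (27.8 CPM) and H2-DMb1 (22.3 CPM), and CDA-HFD liver 2 for Hsd3b5 (0.882 CPM).

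The diet effect differed between WT and KO livers, by the interaction test in edgeR, for 10 genes described in the report. The WT effect minus the KO effect on the log2 scale was -2.29 for Meg3, -0.99 for Lipe, -0.70 for Abcc3, -1.24 for Prodh, 0.98 for Rpl26, -0.90 for Xdh, 0.80 for Rpl32, 1.72 for Steap2, 3.38 for Esm1 and 4.01 for Cxcl5.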

How the results depend on the processing

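With library size only, 9120 genes were higher and 1570 lower, 3508 and 442 of them by at least 2-fold, and these named genes turned positive: Pemt 0.19, Cyp3a11 0.20, Igf1 0.049, Serpina1a 0.24, Glul 0.37, Arntl 0.075, Ccng1 0.17, Vsig4 0.18, Cxcl1 0.39, Lyve1 0.053, Lamp1 0.24, Xist 0.15, Ddx3y 0.026, Eif2s3y 0.25, Kdm5d 0.25 and Xdh 0.31, as did the list medians of ER chaperones (0.30) and sinusoidal endothelial markers (0.19). It also ended the calls of 15 named genes that kept their sign, among them Nr1d1 (-0.12, adjusted p = 0.467) and Dbp (-0.0030, adjusted p = 0.987). Requiring 10 counts in every library left 1299 genes at least 2-fold higher, and a test against a fold of 2 left 912 higher and 323 lower, since it asks for more than the size itself. With WD livers 3 to 5 only, Hspa5 (-0.10), Dnajb9 (-0.0985), Mdm2 (-0.037), Vsig4 (0.14) and Xist (0.66) changed sign. Leaving out each liver gave ranges that crossed 0 for Hspa5 (-0.033 to 0.14), Vsig4 (-0.33 to 0.014), Xist (-0.55 to 0.40), Xbp1 (-0.064 to 0.073), Cxcl1 (-0.21 to 0.16), Glul (-0.18 to 0.070) and Dnajb9 (-0.017 to 0.22), none of which was called. The count of genes whose diet effect differed between WT and KO was 44 with library size only, 52 with no filter, 434 with DESeq2, 63 with the replicate block and 35 to 2138 with a liver left out, and the cause was not tested.

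Same-numbered livers of the 2 diets had correlations of -0.17 to 0.36, and 3 of 5 WD livers matched their own number best. With 5 livers per diet these values cannot decide whether the replicate numbers mark pairs. With the replicate number as a block, 4263 genes were higher and 4080 lower, and 5 named genes (G6pc, Cps1, Cdkn1a, Saa1 and S100a8) gained a call. Genes with few reads limit the precision.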

Other observations

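Of 34 lysosome genes 17 were higher on CDA-HFD and 4 lower (median log2 fold change 0.25; 28 higher and none lower under library-size scaling). The largest rises were those of Ctsk (3.45) and Ctss (2.72), cathepsins that macrophages express, and of Cd63 (2.52). The 4 that fell were Mcoln1 (-0.41), Atp6v1h (-0.35), Lipa (-0.32) and Lamp2 (-0.31). The macrophage markers rose in the same livers, and their part in these values was not tested.

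Circadian clock genes had 9 of 18 lower and 2 higher (median -0.42, and -0.0046 under library-size scaling, where 4 were lower and 5 higher). Of all tested genes 25.2% were lower and 25.9% higher. Nfil3 fell by 1.55 on the log2 scale, and Npas2 (1.4) and Bhlhe41 (1.1) rose, whereas Arntl was not called (-0.38 ± 0.28, adjusted p = 0.274). Dbp fell (-0.41 ± 0.14, adjusted p = 0.0262), and its call was lost in 3 of 10 fits with a liver left out (adjusted p up to 0.0658). The hour of collection is not in the labels.

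Of 19 p53 targets 6 rose and 3 fell (median 0.072; 11 rose and 1 fell under library-size scaling), beside 25.9% and 25.2% of all tested genes. Cdkn1a, the cell cycle inhibitor p21, was not called (-0.89 ± 0.375, adjusted p = 0.0668), Mdm2 was not (0.072), and the 3 that fell were Ei24 (-0.76), Btg2 (-0.59) and Bbc3 (-0.53). DESeq2 called Cdkn1a (adjusted p = 0.0371), as did edgeR with no filter (0.0437) and with the replicate block (0.0255). It was also called without WD liver 1 (0.0207) or CDA-HFD liver 5 (-1.25, adjusted p = 0.0111), and with WD livers 3 to 5 only (0.00959). Of 5 sex chromosome genes, Ddx3y was lower (-0.41 ± 0.122, adjusted p = 0.0152; 0.026 under library-size scaling), and the other 4 were not called.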
